A study of Mus musculus with 10 samples.

Results

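The genes described here are 10 genes of glucose uptake, glycolysis and lactate export that respond to low oxygen in many cell types. They are the transporters Slc2a1, Slc2a3 and Slc16a3, the enzymes Aldoa, Tpi1, Pgam1 and Ldha, the kinase Pdk1, the mitophagy gene Bnip3 and the oxygen sensor Egln3. They were taken by symbol from a table of 20206 genes, with the row of the highest mean where a symbol had more than 1 row, and all 10 were found and passed the filter on low values. RNA was sequenced from 10 wild-type C57BL/6 mouse embryonic stem cell (ESC) lines, labelled male. A group of 5 lines came from blastocysts of mothers given an isocaloric low protein diet (LPD, 9% casein), and the other 5 from mothers given a normal protein diet (NPD, 18% casein). The mothers were 7 to 9 weeks old, and the diet was given up to embryonic day 3.5, before the lines were derived. Each line came from a different mother and was grown without feeder cells before RNA was taken, so a line is 1 replicate. The question asked was whether these genes differed between LPD and NPD lines, and how they moved together from line to line.

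Hypoxia-inducible factor (HIF) is a dimer of an oxygen-regulated alpha subunit (Hif1a, Epas1) and Arnt. In well-oxygenated cells the alpha subunit is hydroxylated by the Egln enzymes, bound by Vhl and degraded, and when oxygen is short it accumulates and binds a short DNA core in its target genes. Many of these targets move the cell from mitochondrial respiration to glycolysis, a form of metabolism on which pluripotent stem cells already rely at normal oxygen.

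The start regions of 4 genes are shown, because these were the genes with the highest mean correlation to the other members across lines. Promoter sequences were those of RefSeq on GRCm38.p6, which held 9 of the 10 members. Slc2a3 was not matched. Only bases before the start site that lie outside every annotated exon are printed, 5′ to 3′ on the strand of the gene. Capitals mark the letters ACGTG or GCGTG, the core letters of the hypoxia response element, on either strand (CACGT or CACGC when read on the printed strand). An ACGTG inside CACGTG is matched on both strands, and the same letters are the E-box of other factors. The aldolase promoter (chr7:126799255-126799504, minus strand) held 1 match.
Aldoa: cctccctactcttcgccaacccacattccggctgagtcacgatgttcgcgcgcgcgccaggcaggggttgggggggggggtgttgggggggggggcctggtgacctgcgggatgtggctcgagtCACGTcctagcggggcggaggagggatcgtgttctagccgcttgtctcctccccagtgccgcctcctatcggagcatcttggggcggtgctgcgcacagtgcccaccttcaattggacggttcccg
The lactate dehydrogenase A promoter (chr7:46845554-46845803, plus strand) held 5 matches, 4 of them in 2 copies of CACGTG, between 34 and 145 bases before the start.
Ldha: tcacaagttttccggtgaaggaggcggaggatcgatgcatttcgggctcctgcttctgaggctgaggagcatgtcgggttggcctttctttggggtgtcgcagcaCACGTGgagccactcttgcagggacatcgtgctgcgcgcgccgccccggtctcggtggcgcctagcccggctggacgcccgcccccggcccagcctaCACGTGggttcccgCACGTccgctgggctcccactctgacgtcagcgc
The promoter of the oxygen sensor Egln3 (chr12:54203875-54204124, minus strand) held 1 match, 229 bases before the start.
Egln3: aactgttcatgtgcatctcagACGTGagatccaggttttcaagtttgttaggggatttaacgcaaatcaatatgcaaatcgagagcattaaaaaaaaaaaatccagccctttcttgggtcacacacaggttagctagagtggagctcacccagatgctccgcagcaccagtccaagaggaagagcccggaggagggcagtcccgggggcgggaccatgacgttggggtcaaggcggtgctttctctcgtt
The triose phosphate isomerase stretch (chr6:124814297-124814408, minus strand) was limited to 112 bases by an exon and held 0 matches.
Tpi1: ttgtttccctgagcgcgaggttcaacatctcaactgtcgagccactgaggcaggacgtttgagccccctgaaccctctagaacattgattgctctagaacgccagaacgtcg
In the 250 bases before the start, 8 of the 9 members had at least 1 match to either core, against 38.6% of 32851 promoters in the same table. For ACGTG alone these were 7 of 9 members against 16.6% of promoters, for GCGTG alone 4 of 9 against 28.2%, and for CACGTG 2 of 9 (Ldha and Bnip3) against 6.02%. The members were chosen as genes that respond to low oxygen, so more matches than in all promoters are no separate finding. For Tpi1 and Pgam1, 0 coding transcripts started within 50 bases of the start used, and the 250 bases of Tpi1 run into the annotated gene. The stretches of Aldoa, Ldha and Slc16a3 lie within the annotated span of the gene, downstream of its first base. A match is a match of letters, and no binding was measured.

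Lines differed in depth and in markers of other cells. Depth, as read equivalents, was between 20390027 and 23182090 in the NPD lines, and LPD lines 4, 6 and 40 held 5848361, 12346078 and 11248868. The Y-linked gene Ddx3y, at 1109.7 or more in 8 lines, had a value of 174 in LPD line 4 and 7.70 in NPD line 15. These values are low for lines labelled male, and the reason was not tested. The pluripotency genes Pou5f1 (18249.6 to 30419.9), Nanog (5141 to 11571) and Sox2 (7481 to 10969) were high in every line. Summed fibroblast markers, of which Postn and Dcn were under the filter, ran from 920.3 (NPD line 51) to 6441 (NPD line 15), with 3804 in LPD line 6 and 2709.7 in NPD line 8. Summed trophectoderm markers ran from 3034 to 10712 (LPD line 6), and primitive endoderm markers from 448 (NPD line 15) to 4941. In such bulk samples, fewer cells of a type and less RNA per cell cannot be told apart.

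Per kilobase of the longest coding transcript, the mean level over the 10 lines was highest for Aldoa (13471 ± 3824, SD) and Pgam1 (8611 ± 1386). Slc2a3 (5468), Ldha (4811), Slc2a1 (2737) and Tpi1 (2489.9) followed, then Pdk1 (541), Bnip3 (539.7), Slc16a3 (226) and Egln3 (203). Aldoa lay above Pgam1, Pgam1 above Slc2a3, Tpi1 above Pdk1 and Bnip3 above Slc16a3 in 10 of 10 lines. The neighbours Slc2a3 and Ldha, Slc2a1 and Tpi1, Pdk1 and Bnip3, and Slc16a3 and Egln3 changed places from line to line, with the first of each pair higher in 5, 4, 5 and 6 lines. These levels are normalized values per kilobase, and all values below are normalized values per gene without correction for length.

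Slc16a3 (chr11:120948480-120960868), which carries lactate out of the cell, varied most among the 10 genes. Its values in LPD lines 1, 4, 6, 20 and 40 were 1253, 816, 270.2, 196 and 1874, and in NPD lines 8, 15, 21, 36 and 51 they were 164, 922, 1930.1, 1416 and 963. Thus 3 lines, LPD 6, LPD 20 and NPD 8, lay far below the other 7, and the highest line was 11.8 times the lowest. Only 2.13% of all genes tested had a larger SD over lines. Slc2a1 (chr4:119108711-119137983), the widely expressed glucose transporter GLUT1, varied 2.13-fold. Its values were 6251, 7421, 8414, 10979 and 12024 in the LPD lines and 5636, 7491, 11496, 8937 and 10568 in the NPD lines, in the same order of lines. Here LPD lines 6 and 20 were not low, and NPD line 8 was. Slc2a3 (chr6:122727809-122801640), the high-affinity glucose transporter GLUT3, followed Slc2a1 closely. It had 18191, 17416, 22239, 22557 and 30150.2 in LPD lines and 16097, 18958, 27449, 20555 and 22872 in NPD lines, a 1.87-fold range, again with LPD line 40 highest and NPD line 8 lowest.

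Among the enzymes, Ldha (chr7:46841475-46855627), which turns pyruvate into lactate, had the widest range, 3.62-fold. Its values were 9972, 9197, 3925, 5857 and 10874 in LPD lines and 4772, 9337, 14191, 10328 and 8859.8 in NPD lines. LPD 6, LPD 20 and NPD 8 were again the 3 lowest. Tpi1 (chr6:124810586-124814296), which interconverts the triose phosphates, had 4597, 3969, 2122, 2179 and 6274 in LPD lines and 2295, 4272, 5893, 4511 and 3899 in NPD lines. The same 3 lines lay between 2122 and 2295, and no other line was below 3899. Aldoa (chr7:126795234-126800751), which splits fructose 1,6-bisphosphate, had 21122, 19535, 13979, 17369 and 30754 in LPD lines and 12439.9, 20358, 29994, 20854 and 22255 in NPD lines. Its lowest 3 lines were again those 3, and LPD 40 and NPD 21 stood above the rest. Pgam1 (chr19:41911923-41918660), the phosphoglycerate mutase, was the steadiest gene, between 12010.1 and 19128, a 1.59-fold range. NPD 8 and LPD 6 were its lowest lines, while LPD 20, at 15878, was above the median of 14908. Aldoa and Tpi1 overlap other annotated genes, and Aldoa, Pgam1 and Ldha have processed pseudogenes, so some of their reads could have been shared in ways the table does not show.

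Pdk1 (chr2:71873224-71903858), a kinase that shuts off pyruvate dehydrogenase, stood apart from the other members. It had 2814, 3241, 1634, 3264 and 2378 in LPD lines and 2842, 2922, 2786, 3472 and 2676 in NPD lines. LPD line 6 was its only far lower line, and LPD 20 and NPD 8, low for most members, were not low for Pdk1. Bnip3 (chr7:138890836-138909519), a mitochondrial outer membrane protein that marks mitochondria for removal, had 1202, 952, 251, 225 and 1591 in LPD lines and 453, 1007, 1781, 1207 and 806 in NPD lines. Its range was 7.91-fold, with LPD lines 6 and 20 below every other line and NPD line 8 next. Egln3 (chr12:54178981-54203860), a HIF prolyl hydroxylase that is itself a HIF target, had 391, 345, 119.7, 116 and 1114 in LPD lines and 141, 597, 1331, 483 and 754 in NPD lines. The highest line was 11.5 times the lowest, the 3 low lines lay between 116 and 141, and LPD 40 and NPD 21 were the only lines above 754.

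**Figure D1:**
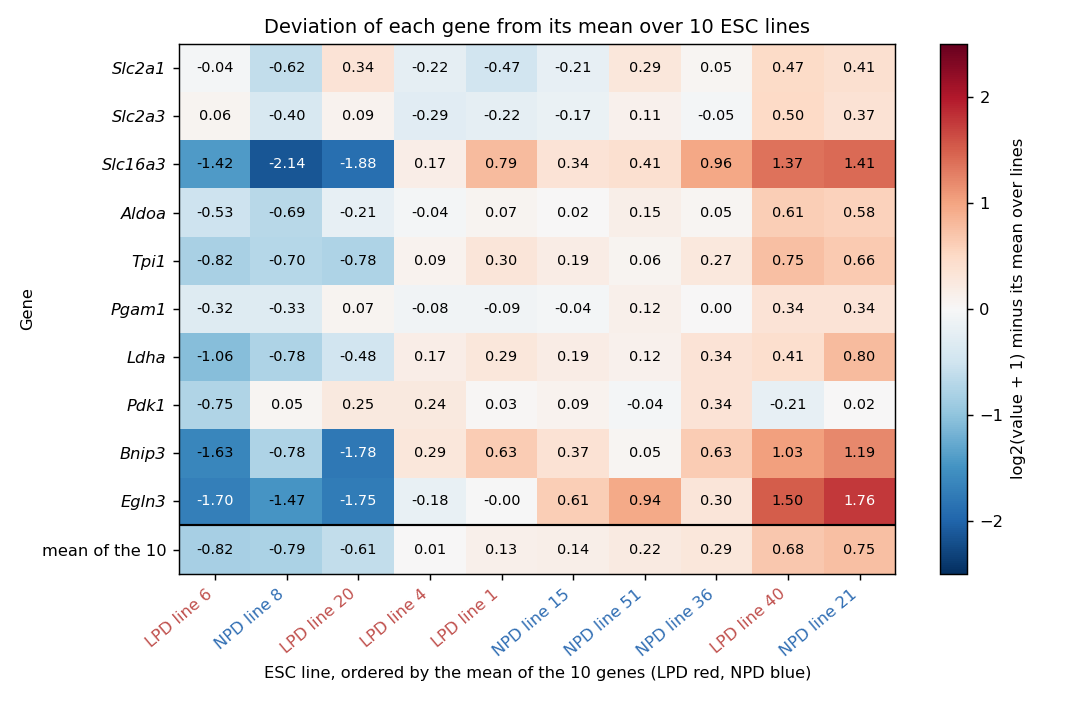
Each cell gives the log2(value + 1) of 1 gene in 1 ESC line less the mean of that gene over the 10 lines, with lines ordered by the mean of the 10 genes in the bottom row. LPD line 6, NPD line 8 and LPD line 20 lie at the low end and LPD line 40 and NPD line 21 at the high end, most clearly for Slc16a3, Bnip3 and Egln3.

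As a description of each line, the log2 deviations of the 10 genes from their own means were averaged. This mean was -0.82, -0.79 and -0.61 in LPD line 6, NPD line 8 and LPD line 20, between 0.01 and 0.29 in LPD lines 4 and 1 and NPD lines 15, 51 and 36, and 0.68 and 0.75 in LPD line 40 and NPD line 21. Both ends therefore held lines of both diets. All 10 genes were above their own mean in NPD line 21, and 9 were in LPD line 40, in NPD line 36 and in NPD line 51. This count was 1 in LPD line 6, 1 in NPD line 8 and 4 in LPD line 20. The range of the mean over lines was 1.57, and 0.74 without the 3 low lines. The SD over lines was in the top 10% of genes tested for Slc16a3, Egln3 and Bnip3, where by construction 10% of genes are. More members were in the top 10% among the 5996 genes that averaged at least as high as the lowest member. There, 1.60% of genes had a larger SD than Ldha, 1.73% than Tpi1, 4.85% than Aldoa and 6.55% than Slc2a1. Outside the top 10% there were Pdk1 (12.4%), Slc2a3 (15.5%) and Pgam1 (28.5%). With log2 relative depth the mean gave r = 0.00 and Spearman rho 0.20 (n = 10 lines), and r = 0.21 without the 3 low lines. It ran with the summed pluripotency markers (r = 0.79), and against the summed fibroblast (r = -0.41) and trophectoderm markers (r = -0.54). The sums weigh the genes of highest value most, and single genes varied. Their r ran from -0.77 to 0.77 for pluripotency (median 0.42), from -0.57 to 0.42 for fibroblast and from -0.62 to 0.00 for trophectoderm markers. Summed primitive endoderm markers gave r = 0.51 and summed primed epiblast markers r = 0.41, and without the 3 low lines these were 0.21 and -0.21. These are descriptions over 10 lines, and the part of these markers in the result was not tested.

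Most pairs of members were positively correlated from line to line. The median Pearson r of the 45 pairs on log2 values was 0.71, against -0.00065 for all pairs of genes tested. An r of at least 0.8 was reached by 19 of the 45 pairs, against 0.746% of all 103011481 pairs. Only the 2 pairs of Pdk1 with Slc2a1 and with Slc2a3 were below 0. Since LPD 6, LPD 20 and NPD 8 stood apart, r was also computed over the other 7 lines, a choice made after seeing the values. Over these, the median was 0.78 and 22 of the 45 pairs reached 0.8, against 2.67% of all pairs. An unadjusted p under 0.05 was found for 25 pairs over 10 lines (permutation test, two-sided, 100000 resamples) and for 23 over 7 lines (exact permutation test, two-sided). The share of all pairs of genes under this p was not computed, and the members were chosen with earlier results of these data known. The counts are therefore a description and not a test of the members as a set. The 45 pairs share genes and lines, so these counts do not stand for separate observations. With diet removed as residuals within each diet, the median r was 0.72.

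A block of 6 genes, Slc16a3, Aldoa, Tpi1, Ldha, Bnip3 and Egln3, had r from 0.81 to 0.97 in its 15 pairs. The block was picked out from these same correlations, so its high r is a description and not a test. The 3 low lines carry part of these values, and without them the 15 pairs ran from 0.62 (Bnip3 with Egln3) to 0.95 (Tpi1 with Bnip3). Over those 7 lines the block was not set apart. Egln3 had r from 0.62 to 0.91 within it, and 0.96 with Pgam1 and 0.94 with Slc2a3 outside it. The lactate exporter Slc16a3 and Tpi1 gave r = 0.97 (Spearman rho 0.89, permutation p = 8e-05 and 0.00111), and 0.98 without LPD 20 and NPD 8, the lines farthest from the median of Slc16a3. Over the 7 lines it was 0.93 (exact permutation p = 0.00317). Slc16a3 and Ldha, which act one after the other in making and exporting lactate, gave r = 0.93 (rho 0.93, permutation p = 8.9e-04 and 2.9e-04), 0.96 without those 2 lines and 0.85 over the 7 lines. Bnip3 and Egln3 gave r = 0.91 (rho 0.84, permutation p = 4.5e-04 and 0.00381), 0.84 without LPD 6 and LPD 20 and 0.62 over the 7 lines.

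Over 10 lines each glucose transporter had its highest r with the other. Slc2a1 and Slc2a3 gave r = 0.92 (rho 0.96, permutation p = 1.7e-04 and 4e-05), 0.90 without LPD 1 and NPD 8, and 0.93 over the 7 lines (exact permutation p = 0.00278). Over the 7 lines this pair did not stand alone. Slc2a3 was closer to Pgam1 (r = 0.99), Aldoa (0.96) and Egln3 (0.94), and Slc2a1 also had 0.93 with Pgam1. With the block of 6 genes these transporters had r from 0.15 (Slc2a1 with Bnip3) to 0.71 (Slc2a3 with Aldoa). Over the 7 lines the same 12 pairs were from 0.45 to 0.96. LPD 6 and LPD 20 are the lines that were low for the block and not for the transporters. Pgam1 was close to both, with r between 0.60 and 0.93 to every member other than Pdk1. Its r with Aldoa was 0.93 (rho 0.81, permutation p = 7.9e-04 and 0.00696), 0.87 without LPD 40 and NPD 8 and 0.97 over the 7 lines. Pdk1 had r from -0.32 (Slc2a3) to 0.46 (Ldha) with the other 9, none with an unadjusted permutation p under 0.18. Over the 7 lines all 9 of its correlations were negative, from -0.71 to -0.20, and the smallest exact permutation p was 0.0790. With LPD line 6 alone left out, also a choice made after seeing the values, r of Pdk1 was also negative with all 9, from -0.53 to -0.22. Without LPD line 20 alone, or without NPD line 8 alone, it was above 0 with 7 of the 9, as over 10 lines. Leaving out the 2 lines farthest from the median gave r from -0.67 (Egln3, without LPD 6 and NPD 36) to 0.64 (Slc16a3, without LPD 20 and NPD 8).

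**Figure D2:**
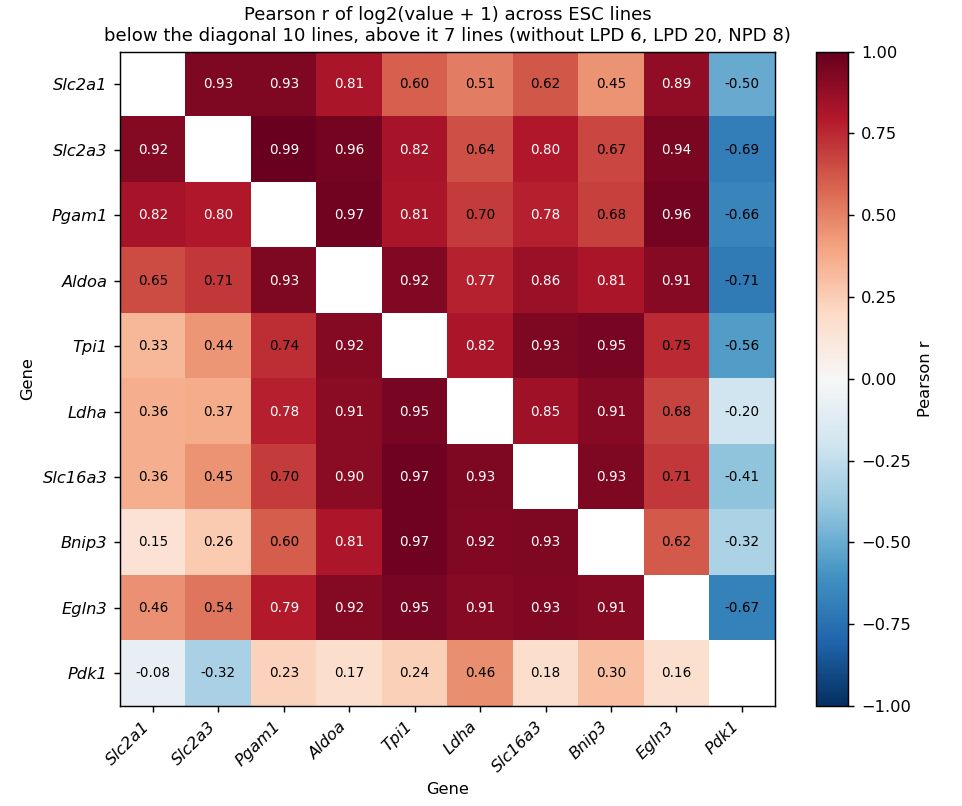
Pearson r of log2(value + 1) between each pair of the 10 genes, over 10 ESC lines below the diagonal and over 7 lines above it, without LPD lines 6 and 20 and NPD line 8. The 6 genes from Aldoa to Egln3, grouped from these same values, have r of 0.81 or more below the diagonal, and the Pdk1 column is negative above it.

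**Figure D3:**
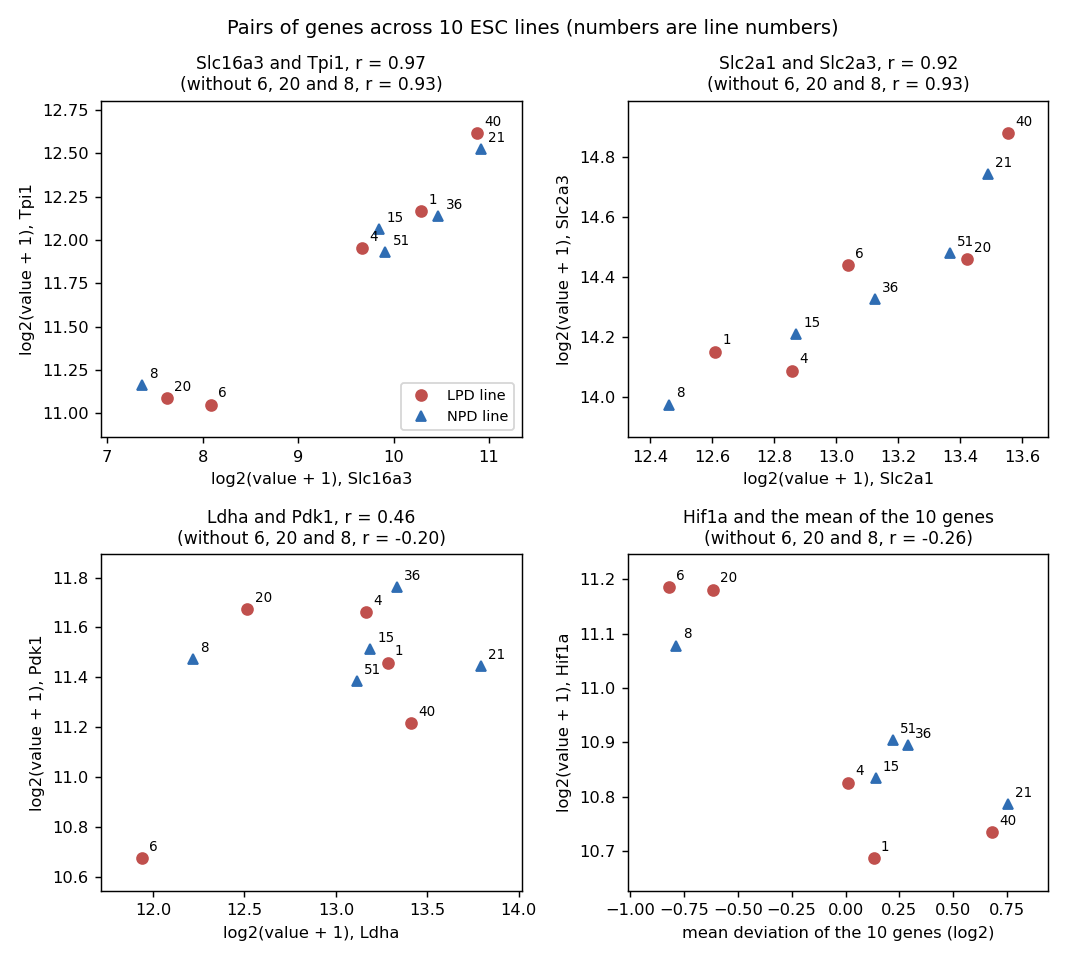
Log2(value + 1) of pairs of genes in 10 ESC lines, with LPD lines as circles and NPD lines as triangles, and, in the last panel, Hif1a against the mean deviation of the 10 genes. For Slc16a3 and Tpi1, LPD lines 6 and 20 and NPD line 8 sit in a separate lower corner, while for Slc2a1 and Slc2a3 the 10 lines form 1 continuous row.

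No member differed between the diets beyond the spread between lines. At an unadjusted p under 0.05 (limma), 0 of the 10 members were called, against 5.02% of the 14354 genes tested. At an adjusted p under 0.1 (limma, Benjamini-Hochberg over all genes) there were 0 members and 0% of genes. Values of LPD and NPD lines overlapped for all 10 members, where 1.02% of genes did not overlap. The median log2 fold change of the members, LPD against NPD, was -0.18, with 2 higher and 8 lower in LPD, against 0.00 for all genes. Of these 8, all but Pdk1 and Pgam1 were lowest in the same 3 lines, 2 of which are LPD lines, so they are not separate observations.

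The largest difference was in Egln3, whose mean was 417 ± 409 in the LPD lines and 661 ± 437 in the NPD lines (SD, n = 5 each). On the log2 scale this was -0.85 (standard error 0.65, 95% interval -2.26 to 0.55, limma p = 0.211, two-sided exact permutation p = 0.310). Without LPD line 40 it was -1.34 (limma, unadjusted p = 0.0408, adjusted p = 0.745) and without NPD line 8 it was -1.33 (limma, unadjusted p = 0.0420, adjusted p = 0.997). Without NPD line 21, LPD line 20 or LPD line 6 it was only -0.52, -0.52 and -0.54. Bnip3 had a mean of 844 ± 598 in LPD lines and 1051 ± 494 in NPD lines (SD, n = 5 each), which is -0.59 on the log2 scale (95% interval -1.76 to 0.59, exact permutation p = 0.381). Slc16a3, with 882 ± 702 and 1079 ± 655 (SD, n = 5 each), had a log2 fold change of -0.39 and the widest interval, -1.92 to 1.13 (exact permutation p = 0.714). The intervals of all 3 genes include a 2-fold lower level in LPD, and that of Slc16a3 also includes a 2-fold higher level.

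The steadier members were bounded more closely. The glucose transporters had log2 fold changes of 0.03 (95% interval -0.42 to 0.49, exact permutation p = 0.881) for Slc2a1 and 0.06 (-0.30 to 0.42, p = 0.762) for Slc2a3. Among the enzymes, Pgam1 had -0.03 (95% interval -0.34 to 0.27, exact permutation p = 0.810) and Aldoa -0.04 (-0.54 to 0.46, p = 0.841). Tpi1 had -0.19 (95% interval -0.86 to 0.48, exact permutation p = 0.667) and Ldha, with 7965 ± 2948 in LPD and 9497 ± 3372 in NPD (SD, n = 5 each), -0.27 (-0.93 to 0.40, p = 0.492). Pdk1 had -0.18 (95% interval -0.54 to 0.18, exact permutation p = 0.437), with LPD lines 6 and 40 below every NPD line. A design of 5 lines against 5 allows no exact p below 0.00794. Without LPD line 4 or NPD line 15, whose Ddx3y was low, Egln3 had -0.92 and -0.81 and no member reached an unadjusted p under 0.05 (limma).

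**Figure D4:**
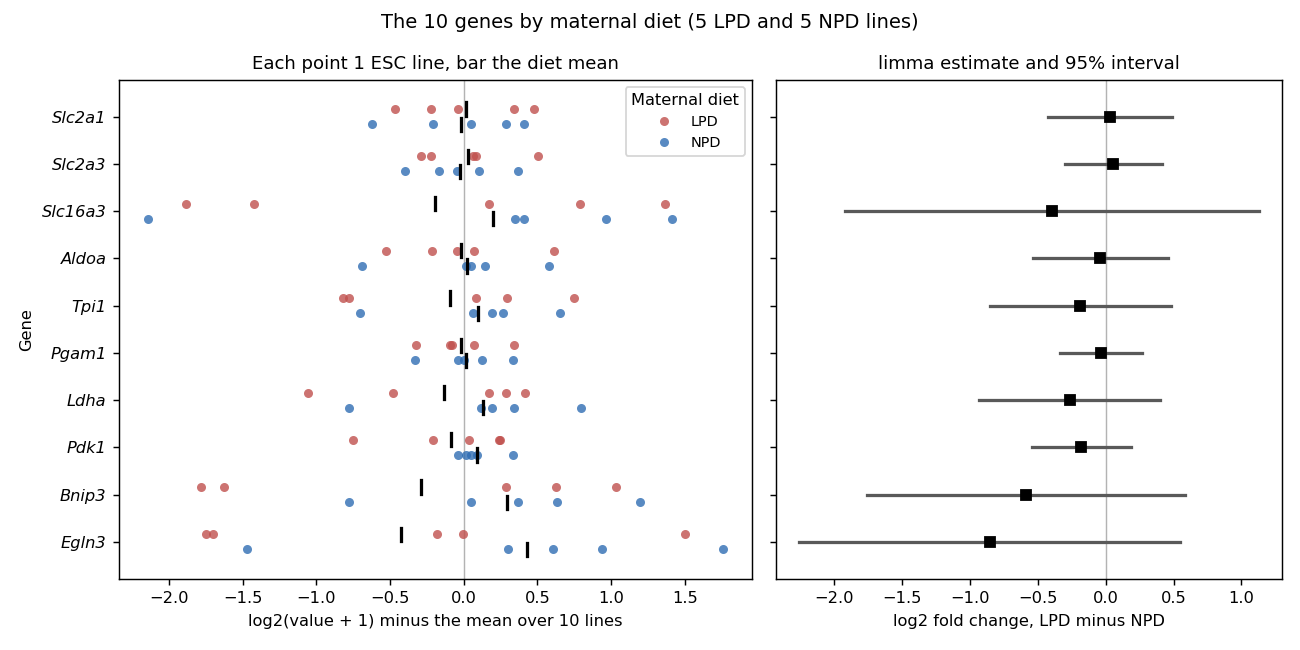
Left, log2(value + 1) of each gene in each of 5 LPD (red) and 5 NPD (blue) lines less its mean over the 10 lines, with black bars for the diet means. Right, the limma log2 fold change of LPD against NPD (squares) with its 95% interval (lines), every one of which includes 0.

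Related genes of the same pathways were compared with the mean of the 10 members, as a description over 10 lines without a test. Of all other genes tested, 1.35% had r of at least 0.8 with it. Among 13 other glycolytic enzymes, 7 did, with a median r of 0.83. The highest were Pfkl, the liver form of phosphofructokinase (r = 0.97, and 0.83 over the 7 lines), and Pgk1, the phosphoglycerate kinase (r = 0.94, and 0.74). Pfkl had 4824, 3677, 1463, 2064 and 5564 in LPD lines 1, 4, 6, 20 and 40 and 1727, 3786, 5730.5, 4785 and 3556 in NPD lines 8, 15, 21, 36 and 51, so its lowest lines were the 3 lines low for most members. Over 10 lines r was lower for the hexokinases Hk1 (r = 0.12, and -0.41 over the 7 lines) and Hk2 (r = 0.23, and 0.81) and for the muscle form Pfkm (r = -0.13, and -0.65). Gapdh (r = 0.48, and 0.80) and Ldhb (r = 0.40, and 0.15) were also below 0.8 over 10 lines, so Hk2 and Gapdh were close to the mean only without the 3 low lines. For diet, 1 of the 13 enzymes was higher in LPD at an unadjusted p under 0.05 and 0 lower, against 5.02% of all genes tested. The list median was -0.04. The higher enzyme was the neuronal enolase Eno2, with a log2 fold change of 0.64 (standard error 0.26, limma p = 0.0319, adjusted p = 0.952, exact permutation p = 0.0238). Eno2 is a low gene with values from 43.5 to 141, the highest in LPD line 40. Pfkp had the smallest p of the lower enzymes, with -0.22 (limma p = 0.0915, exact permutation p = 0.143).

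Among 25 other HIF target genes, 7 had r of at least 0.8 with the mean, with a median of 0.65. The highest were Higd1a, a mitochondrial protein of the respiratory chain (r = 0.91, and 0.78 over the 7 lines), and Ndrg1, a stress-induced protein (r = 0.91, and 0.83). Ndrg1 had 245, 281, 159, 84.6 and 557 in LPD lines and 72.4, 381, 573, 308 and 214 in NPD lines. Ankrd37 (r = 0.91, and 0.92 over the 7 lines) spanned a wider range, from 9.38 in LPD line 20 to 372 in LPD line 40. Other targets were near or below 0 over 10 lines, but not all of them over the 7 lines. Among them were the angiogenic factor Vegfa (r = 0.10, and 0.66 over the 7 lines), Car9 (r = -0.29, and -0.21), Kdm3a (r = -0.11, and 0.38), Ak4 (r = -0.68, and 0.18) and Lox (r = -0.61, and -0.56). For diet, 1 of the 25 was higher in LPD at an unadjusted p under 0.05 and 0 lower, against 5.02% of all genes tested. The list median was 0.03. The higher target was the haem oxygenase Hmox1, with a log2 fold change of 0.47 (standard error 0.21, limma p = 0.0486, adjusted p = 0.988, exact permutation p = 0.0397). LPD line 20, at 3288, was far above the other 9 lines, which lay between 1109 and 1599.

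The 16 genes of HIF itself and of its control had a median r of -0.17 with the mean over 10 lines, and 0.20 over the 7 lines. Vhl, which recognises hydroxylated HIF, gave r = 0.90 over 10 lines and 0.44 over the 7 lines. Egln1, the main prolyl hydroxylase and a HIF target, is also counted among the other HIF targets above with r of at least 0.8. It gave 0.87 and 0.92, with 469, 333, 387, 244 and 672 in LPD lines and 289, 428, 718, 511 and 553 in NPD lines. Hif1a mRNA ran the other way, with 2329, 2321 and 2161 in LPD line 6, LPD line 20 and NPD line 8, and between 1648 and 1916 in the other 7 lines. It thus formed 2 clusters of lines, and within the 7 lines its r with the mean was -0.26. The coactivator Ep300 (r = -0.85, and -0.76 over the 7 lines) and the asparaginyl hydroxylase Hif1an (r = -0.81, and -0.72) were also higher where the members were low. Epas1 gave r = 0.20 over 10 lines and 0.12 over the 7 lines, and Arnt -0.22 and -0.80. None of the 16 had an unadjusted p under 0.05 for diet, and the smallest was that of Hif3a (log2 fold change 0.86, limma p = 0.0715, exact permutation p = 0.135). Protein and hydroxylation, through which oxygen acts on HIF, were not measured here.

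Of the transporter relatives, 5 of 11 passed the filter and none had r of at least 0.8. Basigin (Bsg), the partner protein of the lactate transporters, was closest (r = 0.79, and 0.84 over the 7 lines), before the glucose transporter Slc2a8 (r = 0.72) and the lactate transporter Slc16a1 (r = 0.57). Slc2a2 was listed at 0 in at least 5 lines. Of 12 genes of pyruvate dehydrogenase, its kinases and the pyruvate carrier, none had r of at least 0.8, with a median of 0.06. The kinase Pdk3 was closest (r = 0.68, and 0.81 over the 7 lines), and Pdhb was lowest (r = -0.72). None of the tested genes of these lists had an unadjusted p under 0.05 for diet (limma).

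**Figure D5:**
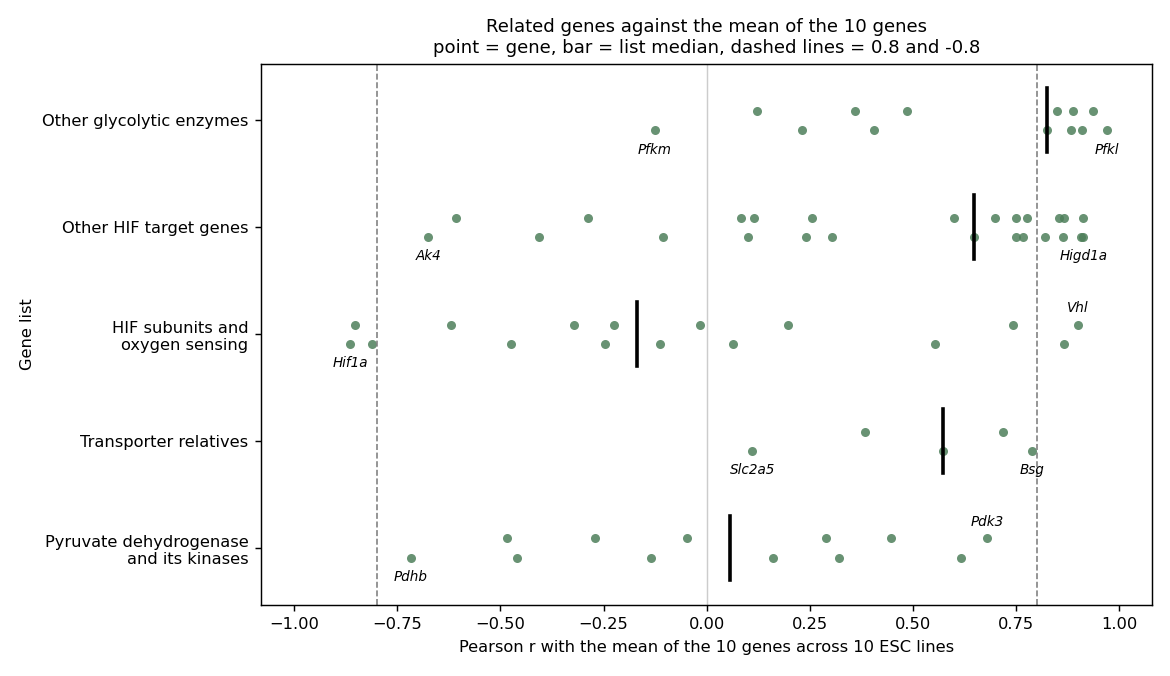
Pearson r of each tested gene of 5 lists with the mean of the 10 genes over 10 ESC lines, with black bars for list medians and dashed lines at 0.8 and -0.8. The other glycolytic enzymes have the highest median, 0.83, and the genes of HIF and its control reach both ends, from -0.86 for Hif1a to 0.90 for Vhl.

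Over all genes tested, those whose pattern was most like the mean of the 10 were named by Pearson r over 10 lines, again as a description. The highest was A2m, the protease inhibitor alpha-2-macroglobulin (r = 0.99, and 0.96 over the 7 lines). It had 8.35, 12 and 8.57 in LPD 6, LPD 20 and NPD 8, and between 80.3 and 364 in the other 7 lines. After Pfkl came Jpt1 (r = 0.97), Ndufa4l2 (r = 0.96), a HIF-induced mitochondrial protein, Pgm1 (r = 0.96), a phosphoglucomutase, Smtnl2 (r = 0.95), Aire (r = 0.95) and Mrfap1 (r = 0.95). Ndufa4l2 had values of 5.18, 6.39 and 1.46 in LPD 6, LPD 20 and NPD 8 and 35.0 to 154 in the other lines. Over the 7 lines, r of these 8 genes was between 0.71 (Aire) and 0.96. The most opposed genes were Cttnbp2nl (r = -0.96), Gnai3 (r = -0.94), Cacna2d1 (r = -0.94) and Slc39a9 (r = -0.93), the last with r = -0.56 over the 7 lines.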

How the data were processed

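RNA of 5 LPD and 5 NPD mouse ESC lines, each line from a different mother, was sequenced after enrichment with oligo(dT) beads. The authors removed adaptors with cutadapt, kept reads with at least 90% of bases above a quality score of 20, and quantified transcripts with Salmon on GRCm38 (release 88). Sleuth 0.30.0 is also named in the submitters' processing notes. What the authors deposited is 1 table of normalized signal, 1 value for each gene in each line, and its name credits DESeq2. The step from transcripts to genes, and any use of strand, are not given in the sources used here. All 10 columns were matched to a line by sample number, and 0 were left without a line.

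Of the 20206 genes, 19891 were matched to GENCODE M21. Only 66.2% to 71.9% of low values were whole multiples of the value of 1 read (tolerance 0.15), so no count model was used, and read equivalents are totals divided by that value. Values were analysed as log2(value + 1), which understates changes of low genes. Genes averaging 10 or more, 14354 in all, were tested with limma 3.58.1 (R 4.3.3, mean-variance trend, no covariate), and single members by exact permutation over 252 assignments. The test was checked on simulated data with known changes. Correlations used 100000 resamples, with p given unadjusted over the 45 pairs. The other steps ran in Python 3.11.15 (scipy 1.17.1, numpy 2.4.6 and pandas 2.3.3), and plots were drawn with matplotlib 3.10.9. Promoters with several RefSeq entries were taken at the entry with most coding transcripts starting within 50 bases, entries free of exons first.

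The rule for genes to name took the 10 members, and over all genes the 8 highest and 4 lowest by r to the mean of the members. From each other list it took the 2 with the smallest p in each direction and the 2 with the highest r to that mean. Not every gene that the rule took from those lists is named here. Further genes of the lists are named as examples after their values were seen. The lists were other glycolytic enzymes, other HIF targets, HIF subunits and oxygen sensing, transporter relatives, pyruvate dehydrogenase and its kinases, and markers of pluripotent, primed epiblast, fibroblast, primitive endoderm and trophectoderm cells. Members and lists were chosen with earlier results of these data known. The alternatives changed the pseudocount, filter, scaling, trend, weights, depth covariate and lines.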

Additional observations from a re-analysis of the deposited data

How the results depend on the processing

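No paired analysis was possible because the LPD and NPD lines share no line numbers. Depth limits the low genes most, since 1 read was worth 2.88 units of the normalized signal in LPD line 4 and 0.73 to 0.85 in the NPD lines. Over 19 alternatives for each of the 10 members, 188 of 190 log2 fold changes stayed on the same side of an unadjusted p of 0.05 (limma) as reported, and 17 had the other sign, none of them past that threshold. The other 2 were those of Egln3. The count of members under that threshold, 0 as reported, was between 0 and 1 when single lines were left out, and was 1 when LPD line 40 or NPD line 8 was absent. The count of genes of the other lists under it was 3 as reported, 1 without the mean-variance trend and 1 with depth as a covariate, and ranged from 0 (without NPD line 15) to 7 (without LPD line 6) when single lines were left out. Without LPD line 40 it was 5 and without NPD line 21 it was 1. The median r of the pairs ranged from 0.59 (without NPD line 8) to 0.83 (without LPD line 20), and the pairs of at least 0.8 from 16 to 24. The count of members in the top 10% by SD was 3 as reported, 5 with a pseudocount of 10, 5 with a mean of at least 100 and 1 without LPD lines 6 and 20 and NPD line 8, which was tried only once the values were known. In that setting the range of the mean of the members was 0.74. The causes of these shifts were not tested.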

Other observations

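Some marker genes of other cell states also ran with the mean of the 10 genes. Among the 6 tested markers of the primed epiblast, the state that follows naive pluripotency, Otx2 (r = 0.84, and 0.60 over the 7 lines without LPD 6, LPD 20 and NPD 8) and Lef1 (r = 0.81, and 0.46) were the 2 with r of at least 0.8. Zic2 (r = 0.78, and 0.58) was close and Fgf5 (r = 0.38, and 0.02) was lower. Dnmt3b (r = -0.40, and -0.81) and Pou3f1 (r = -0.32, and -0.47) went the other way. Otx2, a transcription factor of the primed epiblast, was also the only gene of the marker lists with an unadjusted p under 0.05 for diet (limma). Of all genes tested, 5.02% were under that threshold, so 1 such gene is no sign of a diet effect on Otx2. Otx2 had 202, 226, 90.3, 176 and 361 in LPD lines 1, 4, 6, 20 and 40 and 186, 485, 515, 406 and 273 in NPD lines 8, 15, 21, 36 and 51. Its log2 fold change was -0.85 (standard error 0.35, limma p = 0.0310, adjusted p = 0.952), but the groups overlapped and the exact permutation p was 0.0714. Among the pluripotency markers, Tdgf1 (r = 0.77) and Pou5f1 (r = 0.71) were highest and Esrrb (r = -0.77) lowest, the last with r = 0.10 over the 7 lines.

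The primitive endoderm markers were higher in LPD in 7 of 7 genes, with a median log2 fold change of 0.34, and none had an unadjusted p under 0.05 (smallest 0.130, limma). They are genes of 1 cell type, so the 7 are not separate observations. For the tested fibroblast markers the median was -0.87 (2 of 8 higher, 6 lower), and for the trophectoderm markers 0.16 (4 of 6 higher, 2 lower), none under that threshold. The collagen cross-linking gene Lox, a HIF target that fibroblasts also express, had its highest values in NPD line 15 (1105), LPD line 6 (702) and NPD line 8 (357), the 3 lines with the highest summed fibroblast markers, and 91.9 or less elsewhere.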
